A study of Mus musculus with 8 samples.

Results

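Neuropeptide Y and the receptors that bind it were followed in cultured mouse hippocampal neurons through the probes of 5 genes: Npy, which encodes the peptide, and Npy1r, Npy2r, Npy5r and Npy6r, which encode the Y1, Y2, Y5 and y6 receptors. The genes were taken as those of the 20144 named genes on the array whose symbol, through the RefSeq match of the array's transcript identifiers, is one of these names, and they are read by 6 probes, of which Npy2r has 2. The family was selected on the difference in log2 ratio between the culture groups, which was known from the same arrays. Each difference of these genes below is therefore a description, given with its standard error and its value in every pair. Their p-values are not printed. A threshold on the adjusted p is applied to them below, in a count and under the processing settings. Because of the selection, passing it is no evidence that a gene differs.

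Dissociated neurons were grown for 10 days, received a lentivirus and were kept 6 days longer. The control cultures received a virus for green fluorescent protein (GFP) and the other cultures received a virus for Flag-tagged Nr4a1, an orphan nuclear receptor and transcription factor induced by neuronal activity. Each group has 4 arrays, which form 4 pairs by a tag in the labels. Pairs are numbered here by replicate, so that pair 4 holds replicate 4 of both groups, and not by the number in the tag. Replicates 1 to 3 belong to batch 1 and replicate 4 to batch 2. The strain, the age of the donor animals and the promoter of the virus are not given in the sources used here, nor is it given whether the replicates came from separate cultures, so the spread between them may be technical. Each array carried the culture's RNA in Cy5 and a commercial mouse reference RNA, common to all arrays, in Cy3, and no dyes were swapped. Values are therefore log2 ratios of culture over reference, except where a signal of 1 dye is named.

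Neuropeptide Y is an amidated peptide that in the hippocampus is made mainly by GABAergic interneurons, and its release dampens excitatory transmission. Its receptors couple to inhibitory G proteins of the Gi/o class. Y1 and Y5 are mostly postsynaptic, Y2 sits largely on nerve terminals and lowers transmitter release, and y6 is a working receptor in the mouse whose gene is truncated in primates. The Npy1r and Npy5r genes are neighbours that are read in opposite directions. Nr4a1 binds as a monomer to the element called NBRE.

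The upstream promoter sequences of 3 receptor genes are shown because Npy1r and Npy5r share a locus, while Npy2r lies at another. Npy1r had a negative difference and Npy2r a positive one. The Npy5r value was negative too, but its culture signal was near background, its groups overlapped and it did not enter the test. Each is the 250 bases before the gene's start in RefSeq's annotation of GRCm38.p6, 5′ to 3′ on the gene's own strand. Npy1r lies at chr8:66697172-66697421 (plus strand), Npy5r at chr8:66688095-66688344 (minus strand) and Npy2r at chr3:82548086-82548335 (minus strand). No base is in capitals because none of the motifs searched was found.
Npy1r: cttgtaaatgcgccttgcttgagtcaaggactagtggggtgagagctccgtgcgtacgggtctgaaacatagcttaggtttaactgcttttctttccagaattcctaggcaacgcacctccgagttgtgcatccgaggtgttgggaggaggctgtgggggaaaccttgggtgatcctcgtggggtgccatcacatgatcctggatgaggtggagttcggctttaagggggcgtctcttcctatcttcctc
Npy5r: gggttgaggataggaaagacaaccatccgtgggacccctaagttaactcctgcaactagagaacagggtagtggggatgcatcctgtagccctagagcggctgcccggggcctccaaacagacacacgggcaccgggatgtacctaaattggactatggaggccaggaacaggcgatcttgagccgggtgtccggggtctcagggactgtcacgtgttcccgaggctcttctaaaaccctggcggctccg
Npy2r: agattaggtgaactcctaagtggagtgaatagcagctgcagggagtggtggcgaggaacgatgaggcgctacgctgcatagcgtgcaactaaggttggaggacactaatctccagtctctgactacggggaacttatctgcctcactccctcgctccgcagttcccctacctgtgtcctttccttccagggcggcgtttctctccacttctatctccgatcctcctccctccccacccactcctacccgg

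The Npy1r and Npy5r starts are 9.33 kb apart on chromosome 8. The NBRE (AAAGGTCA), the half-site it contains (AGGTCA), the cAMP response element (TGACGTCA) and its half-site (TGACG) were searched on both strands of windows of 300 bases, 250 before and 50 after the start. RefSeq's table held such a window for Npy, Npy1r, Npy2r and Npy5r, and 0 of these 4 windows held any of the 4 motifs. Of the 32851 windows of the table, 1.51% held the NBRE, 16.3% its half-site, 1.79% the cAMP response element and 20.8% its half-site. The GC content of the window was 68% for Npy, 51.7% for Npy1r, 57.7% for Npy2r and 61.7% for Npy5r, against a median of 52.7% over all windows.

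Across the arrays, the median Cy5 signal of non-control spots ran from 137 to 194 scanner units and the median Cy3 signal from 141.5 to 154, over local backgrounds near 30. Cy5 was well above background, by the scanner software's flag, at 60.9% to 69.2% of these spots, and no spot was saturated. The file headers place all 4 GFP arrays on slide 1, Nr4a1 replicates 1 to 3 on slide 2 and Nr4a1 replicate 4 on slide 3, so that slide and group cannot be told apart for any difference below. In the GFP cultures, neuronal RNA was far above the reference, with a log2 ratio of 6.82 ± 0.12 (SD, n = 4) for the dendritic protein Map2 and 5.89 ± 0.13 for the GABA-synthesising enzyme Gad1, but so was RNA of the astrocyte filament gene Gfap, at 6.27 ± 0.12. The Nr4a1 probe overlapped between the groups. Its Cy5 signal was 2980, 3562, 3549 and 2115 on GFP replicates 1 to 4 and 6608, 2890, 8564 and 2506 on Nr4a1 replicates 1 to 4, with replicates 2 and 4 of the Nr4a1 group inside the GFP range. Its difference in log2 ratio was 0.30 ± 0.15 (SE, adjusted p = 0.193, limma with Benjamini-Hochberg adjustment over all features). Without replicate 2 it was 0.52 (adjusted p = 0.00601) and with median centring 0.40 (adjusted p = 0.0166), both past the threshold. Nothing used here says whether the probe also reads the Flag-Nr4a1 transgene, so the groups are named by their labels.

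In cultures labelled Nr4a1, Npy6r and Npy2r RNA was higher and Npy1r RNA lower than in the GFP cultures, with no overlap between the groups for any of the 3. Npy itself differed by less than the spread between its arrays. Npy5r was near background in the culture RNA of both groups. Of the 4 receptor and ligand genes tested, 3 passed an adjusted p of 0.05, 2 higher and 1 lower, and the groups did not overlap for the same 3. Over all 21113 features tested, 24.4% passed in either direction, 12.9% higher and 11.5% lower, and the groups did not overlap for 24.4% of the 21055 features with a value on every array, with Nr4a1 higher for 12.6% and lower for 11.7%. Since the genes were picked with this contrast known, nothing is read from the count.

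**Figure D1:**
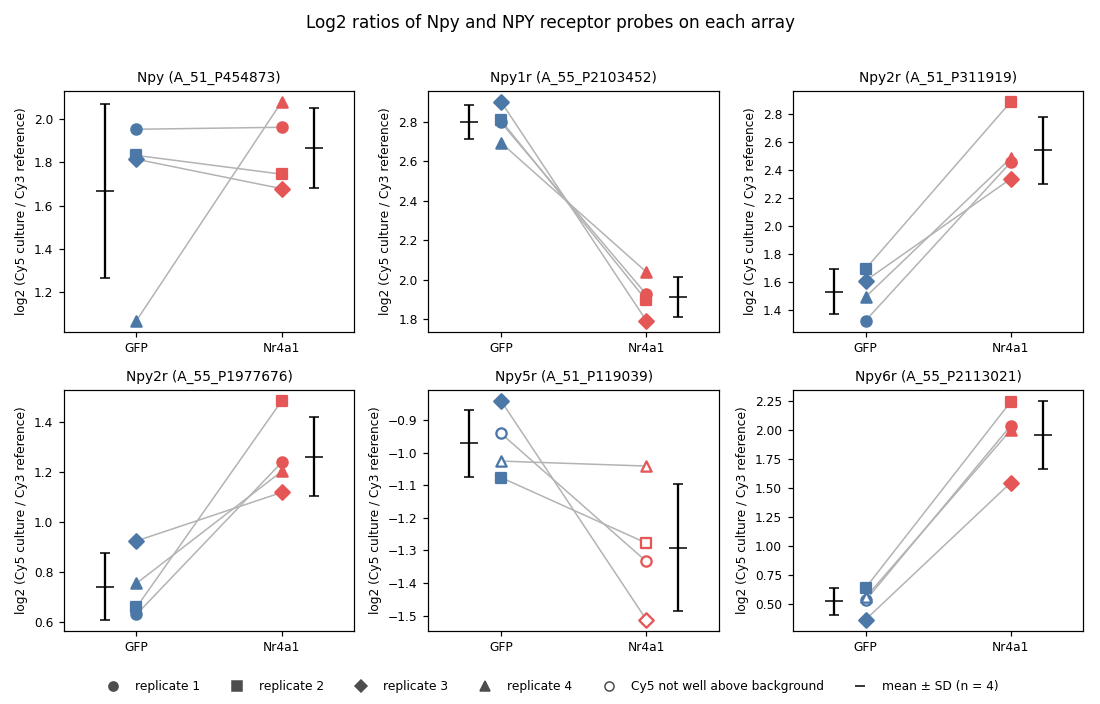
Log2 ratio of Cy5 culture RNA over Cy3 reference RNA for the 6 probes on the 8 arrays, with GFP at left and Nr4a1 at right of each panel, a grey line joining the 2 arrays of a pair, open symbols where Cy5 was not well above background, and mean ± SD (n = 4) beside each group. The groups are apart for Npy1r, both Npy2r probes and Npy6r, and overlap for Npy, where GFP replicate 4 lies at 1.07, and for Npy5r.

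The Npy probe (A_51_P454873) had Cy5 signals of 313, 368, 304 and 290 on GFP replicates 1 to 4 and of 313.5, 280, 277 and 275 on Nr4a1 replicates 1 to 4. Apart from Nr4a1 replicate 1, the Nr4a1 arrays lay below all GFP arrays. Cy5 was well above background on 8 of 8 arrays. The reference channel was not steady for this probe. Its Cy3 signal was 70, 68, 72 and 147 on the GFP arrays and 59, 56, 54 and 62.5 on the Nr4a1 arrays, and it was well above background on 3 of 8 arrays, all of them GFP. GFP replicate 4 thus had a culture signal a little under those of the other GFP arrays and a reference signal far above theirs, although the reference RNA was the same.

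The resulting Npy log2 ratios were 1.95, 1.83, 1.81 and 1.07 on the GFP arrays and 1.96, 1.75, 1.68 and 2.08 on the Nr4a1 arrays. GFP replicate 4 was the lowest of all 8 and the remaining 7 lay close together. The means were 1.67 ± 0.41 (SD, n = 4) for GFP and 1.87 ± 0.19 for Nr4a1, a difference of 0.20 ± 0.16 (SE). By pair the difference was 0.0093, -0.087, -0.14 and 1.02 for replicates 1 to 4, so the positive mean comes from pair 4, the one pair of batch 2. Without that pair, or without GFP replicate 4 alone, the difference was -0.072. From the Cy5 channel alone, normalised between arrays without the reference, it was -0.27. The direction of the Npy difference is therefore not settled by these arrays.

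**Figure D2:**
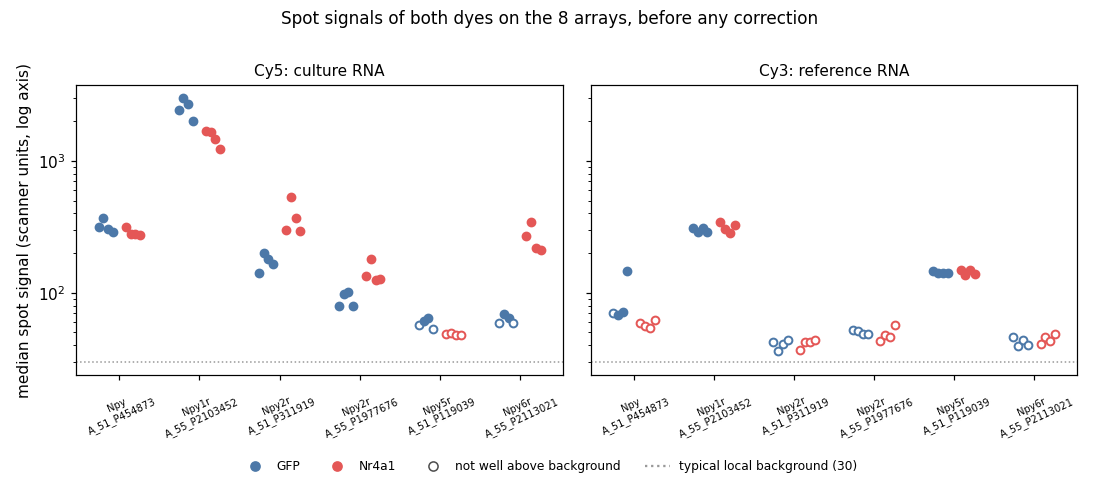
Median spot signal in scanner units (log axis) of the culture dye Cy5 (left) and the reference dye Cy3 (right) for the 6 probes, with the 4 GFP and 4 Nr4a1 arrays side by side, open circles where the signal was not well above background and a dotted line at a typical local background of 30. The reference signals stay in place for Npy1r and Npy5r, while GFP replicate 4 stands at 147 for Npy, above 68 to 72 on the other GFP arrays.

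Npy1r (A_55_P2103452), the gene of the Y1 receptor, was well above background in both dyes on 8 of 8 arrays. Its culture signal in Cy5 was 2423.5, 2976, 2722 and 2017 on GFP replicates 1 to 4 and 1680, 1657, 1460 and 1221.5 on Nr4a1 replicates 1 to 4. Every Nr4a1 array was below every GFP array before any correction. The reference signal in Cy3 ran from 290.5 to 312 on the GFP arrays and from 282 to 343 on the Nr4a1 arrays, so the ranges of the 2 groups overlapped.

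The log2 ratio of Npy1r was 2.80, 2.81, 2.90 and 2.69 on the GFP arrays and 1.93, 1.90, 1.79 and 2.04 on the Nr4a1 arrays. The group means were 2.80 ± 0.09 and 1.91 ± 0.10 (SD, n = 4), which is 1.85-fold lower in the Nr4a1 cultures, with a difference of -0.89 ± 0.08 (SE). It was lower in 4 of 4 pairs, by -0.87, -0.91, -1.11 and -0.65 for replicates 1 to 4. Within batch 1 the difference was -0.96 and within batch 2, which holds 1 pair, -0.65. The culture channel alone gave -0.88 and the software's own processed ratio -0.99. It was the only one of the 5 genes well above background in both dyes on every array.

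The Y5 receptor gene beside it, Npy5r (A_51_P119039), gave little signal from the cultures. Its Cy5 signal was 57, 61.5, 64.5 and 53 on the GFP arrays and 49, 49.5, 48 and 48 on the Nr4a1 arrays, and was well above background on GFP replicates 2 and 3 only. Its Cy3 signal was well above background on 8 of 8 arrays, at 136.5 to 150, so the probe gave a measured signal from the reference RNA. The culture signal was thus measured on 2 of 4 GFP arrays and on 0 of 4 Nr4a1 arrays, and Npy5r did not enter the test.

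The measured log2 ratios of Npy5r were -0.94, -1.08, -0.84 and -1.03 on the GFP arrays and -1.33, -1.28, -1.51 and -1.04 on the Nr4a1 arrays. The groups overlapped through Nr4a1 replicate 4. The difference was -0.32 ± 0.09 (SE), negative in 4 of 4 pairs at -0.39, -0.20, -0.67 and -0.015. No fold is given, since all Nr4a1 arrays and 2 of the GFP arrays only bound the level. Across the processing settings the Npy5r difference ran from -0.047, with spots of non-uniform background kept, to -1.73, in the software's processed ratio.

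Npy2r, the gene of the presynaptic Y2 receptor, has 2 probes that both stood higher in the Nr4a1 cultures. The brighter (A_51_P311919) had Cy5 signals of 142, 201, 180 and 166 on the GFP arrays and 297, 529.5, 371 and 292 on the Nr4a1 arrays. Every Nr4a1 array was above every GFP array, and Cy5 was well above background on 8 of 8. The Cy3 signal was 36 to 44 on all 8 arrays and well above background on 0 of them, so the ratio is of a measured signal over a reference at background.

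The log2 ratio of this probe was 1.33, 1.70, 1.61 and 1.50 on the GFP arrays and 2.46, 2.89, 2.34 and 2.49 on the Nr4a1 arrays. The means rose from 1.53 ± 0.16 to 2.54 ± 0.24 (SD, n = 4), a 2.02-fold higher ratio and a difference of 1.01 ± 0.08 (SE). The pairs gave 1.13, 1.19, 0.73 and 0.99 for replicates 1 to 4. Batch 1 averaged 1.02, close to the single pair of batch 2. The culture channel alone gave 0.84.

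The second Npy2r probe (A_55_P1977676) was dimmer, with Cy5 signals of 79, 97.5, 101 and 79 on the GFP arrays and 133, 179, 125 and 128 on the Nr4a1 arrays. Again every Nr4a1 array was above every GFP array, and Nr4a1 replicate 2 was the highest on both probes. Its log2 ratio went from 0.74 ± 0.13 to 1.26 ± 0.16 (SD, n = 4), a difference of 0.52 ± 0.09 (SE). By pair it was 0.61, 0.83, 0.19 and 0.45, positive in 4 of 4 pairs and lowest in pair 3, as on the brighter probe. The 2 probes thus have the same direction in every pair and differ in size. The mean of both probes gave 0.77.

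Npy6r (A_55_P2113021), the gene of the y6 receptor, had the largest difference of the 5 genes on this scale. Its Cy5 signal was 59, 68.5, 64 and 58.5 on GFP replicates 1 to 4 and 270, 342, 219 and 211 on Nr4a1 replicates 1 to 4. The GFP signals were about 30 units over their local background, and 2 of 4 were well above background, against 4 of 4 in the Nr4a1 group. The Cy3 signal was 39.5 to 49 throughout and well above background on 0 of 8 arrays, so the culture channel carries the difference.

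The log2 ratio of Npy6r was 0.53, 0.64, 0.36 and 0.55 on the GFP arrays and 2.04, 2.24, 1.54 and 2.00 on the Nr4a1 arrays. The lowest Nr4a1 array was far above the highest GFP array. The means were 0.52 ± 0.11 and 1.95 ± 0.29 (SD, n = 4), a difference of 1.43 ± 0.07 (SE). The gene passed the filter on dim probes with 6 of 8 arrays, 4 of them from the Nr4a1 group, and no fold is given because 2 of 4 GFP arrays only bound the level. The pairs gave 1.51, 1.60, 1.18 and 1.44, with batch 1 at 1.43. An offset of 50 added to every background-corrected signal draws ratios of dim spots toward 0. With an offset of 10 the difference was 1.81, and in the software's own processed ratio, which has no such offset, it was 3.24. Mean Cy5 signal over local background was 32.6 ± 3.9 for GFP and 232 ± 60.2 for Nr4a1 (SD, n = 4). RefSeq's promoter table has no entry for this gene.

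For Npy2r and Npy6r pair 3 gave the lowest difference and pair 2 the highest, while for Npy1r pair 3 gave the most negative difference and pair 4 the least. Over all features tested the median absolute difference was 0.11 and the median standard error 0.065. Under 17 alternative settings for Npy1r, 17 for Npy2r and 16 for Npy6r the direction of the difference never changed. Their ranges were -1.09 to -0.81 for Npy1r, 0.46 to 1.37 for Npy2r and 0.99 to 3.24 for Npy6r. Settings that change only the filter on dim probes, or that drop the pair block or replace it by the batch, left the value itself as it was. The number of settings is therefore no measure of support. With slide added to the pair as a random block, the differences were -0.82 ± 0.25, 1.01 ± 0.34 and 1.44 ± 0.31 (SE), and none of the 3 passed the threshold. The smaller standard errors given above take no account of the slide. They did not pass either when spots with a non-uniform local background were kept, although none of those spots was at a probe of these genes.

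**Figure D3:**
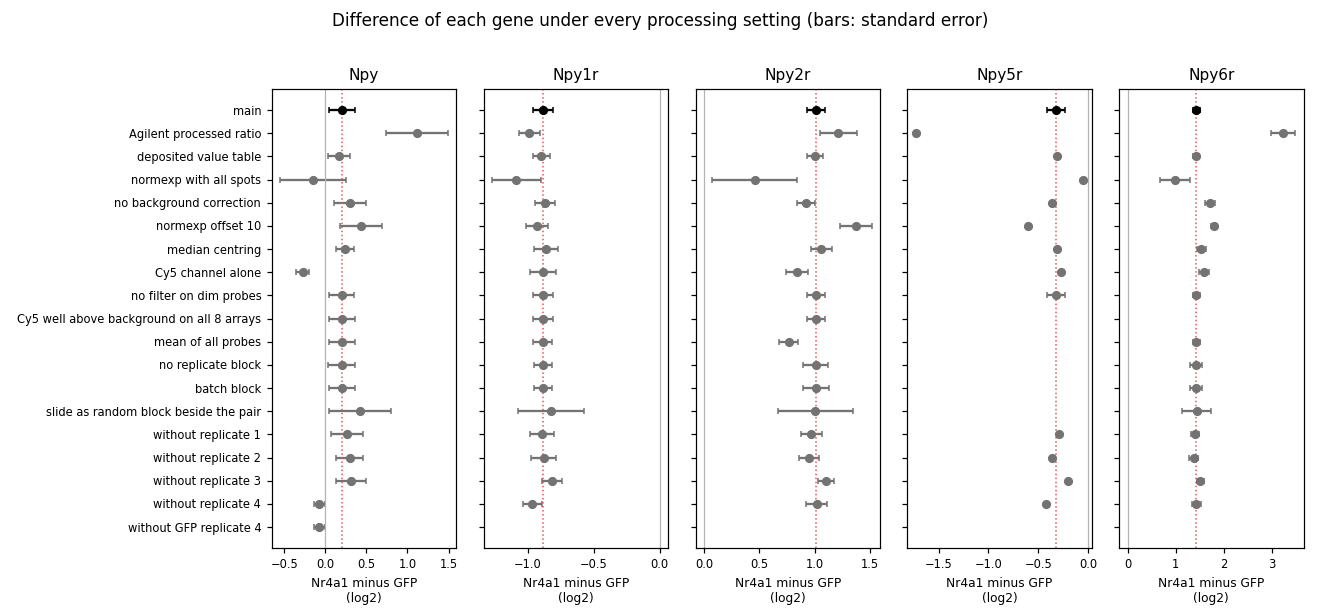
Difference in log2 ratio (Nr4a1 minus GFP) of the 5 genes under each processing setting listed at left, with standard errors as bars where the setting gave a fit, the reported setting in black and its value as a dotted red line. Npy crosses 0, Npy1r stays negative between -1.09 and -0.81, Npy2r and Npy6r stay positive, and Npy5r moves between -1.73 and -0.047.

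The other members of the family gave little signal. Pyy encodes peptide YY, a gut hormone that acts on the same receptors, and its log2 ratio was -0.03 ± 0.07 in GFP and 0.01 ± 0.05 in Nr4a1 cultures (SD, n = 4), a difference of 0.04 ± 0.06 (SE, adjusted p = 0.678, limma). Cy5 was well above background for Pyy on 7 of 8 arrays. Ppy, for pancreatic polypeptide, was well above background in Cy5 on 0 of 8 arrays. Npy4r, for the Y4 receptor that prefers pancreatic polypeptide, was above it on 3 of 8. Neither entered the test.

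The lists of genes that follow share the contrast with the 5 genes. They too were chosen with earlier results of these data known, and most genes named in them are those of smallest p. Their counts and p-values are therefore descriptions. Each count is of tested members past an adjusted p of 0.05 over all 21113 features (limma), to be set against the 12.9% higher and 11.5% lower of all features, whose median difference was -0.0035. When all arrays were centred on the median ratio in place of loess, the share of higher calls went from 52.8% to 73.3% (3464 higher and 1262 lower). With the slide as a random block 12 features passed, 722 at an unadjusted p under 0.05, and 0 of the 121 tested list genes were among the 12.

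Of 7 genes that cut, trim, amidate or break down the NPY precursor or peptide, 2 rose, 2 fell and 3 did not pass, with a median difference of -0.06. Pcsk1, a prohormone convertase, rose by 0.96 ± 0.08 (SE, adjusted p = 2.53e-05), from 3.87 to 4.82. Cpe, the carboxypeptidase that trims the cut ends, rose by 0.51 ± 0.06 (adjusted p = 0.000259). Pam, the enzyme that amidates peptides such as NPY at their carboxyl end, fell by 0.37 (SE 0.08, adjusted p = 0.011), and Scg5, the chaperone of the second convertase Pcsk2, fell by 0.23 (SE 0.06, adjusted p = 0.0194). Pam did not pass without replicate 1 (-0.28, adjusted p = 0.0538), nor Scg5 without replicate 1, 2 or 3 (-0.20, -0.24 and -0.22, adjusted p = 0.078, 0.0653 and 0.0546). In the software's processed ratio neither Pam (-0.57, adjusted p = 0.0778) nor Scg5 (-0.21, adjusted p = 0.0777) passed. Scg5 also did not pass with median centring (-0.12, adjusted p = 0.384) or from Cy5 alone (-0.15, adjusted p = 0.161). Pcsk1 did not pass in the software's processed ratio (0.36, adjusted p = 0.133) or with non-uniform backgrounds kept (0.27), and Cpe not from Cy5 alone (0.11, adjusted p = 0.205). Pcsk2, at -0.03 ± 0.07, did not pass.

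Of 21 tested genes of 23 for Gi/o coupling (G protein alpha subunits, adenylyl cyclases, potassium and calcium channel subunits, arrestins and receptor kinases), 1 rose and 9 fell, with a median of -0.16. Adcy6, an adenylyl cyclase that Gi inhibits, rose by 0.73 ± 0.06 (adjusted p = 1.96e-05). Adcy9, a cyclase, fell by 0.44 (SE 0.06, adjusted p = 0.000928), Grk3, a kinase of active receptors, fell by 0.54 (SE 0.08, adjusted p = 0.00119) and Arrb1, beta-arrestin 1, fell by 0.38 (SE 0.06, adjusted p = 0.00132). The 11 that did not pass ranged over both signs. The list's ratios summed on a linear scale were 227 to 261 on the GFP arrays and 205 to 222 on the Nr4a1 arrays, without overlap. Such a sum, here and below, is carried mostly by the few genes of highest ratio and does not describe the list as a whole. Here Gnai1, at 6.44 in GFP cultures, weighs most, and it did not pass.

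NPY cells are GABAergic interneurons, and of 24 tested genes of 27 that mark interneurons and their classes, 4 rose and 5 fell, with a median of -0.10. Calb2, the calcium-binding protein calretinin, fell by 0.92 (SE 0.10, adjusted p = 0.00017), and Htr3a, a serotonin receptor of interneurons from the caudal eminence, fell by 0.49 (SE 0.06, adjusted p = 0.000388). Satb1, a transcription factor of somatostatin interneurons, rose by 0.56 ± 0.08 (adjusted p = 0.000693) and Dlx1, a homeobox factor of the lineage, rose by 0.41 ± 0.07 (adjusted p = 0.00212). Calb2 was at -0.37 in the processed ratio and did not pass (adjusted p = 0.31). Chosen after their values were seen, the GABA-synthesising enzymes Gad1 and Gad2 differed by 0.08 ± 0.08 and 0.03 ± 0.09 (adjusted p = 0.536 and 0.829), and Sst, the peptide somatostatin that many NPY cells also make, fell by 0.23 (SE 0.06, adjusted p = 0.025). The list's summed linear ratio was 349 to 376 in GFP and 313 to 371 in Nr4a1 cultures, which overlap. In RNA from whole cultures, fewer cells of a type and less RNA per cell cannot be told apart.

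Y1 and Y2 receptors are also carried by excitatory cells, and genes of granule and pyramidal cells are given for comparison. Of 17 tested of 18, 2 rose and 5 fell, with a median of -0.14. Calb1, calbindin of granule cells, fell by 1.25 (SE 0.08, adjusted p = 3.74e-06), Spink8, of CA1 pyramidal cells in the mouse, fell by 1.03 (SE 0.08, adjusted p = 1.9e-05) and C1ql3, a synapse organiser, fell by 0.76 (SE 0.08, adjusted p = 8.48e-05), while Wfs1, also a CA1 marker, rose by 0.80 ± 0.07 (adjusted p = 3.2e-05). In the processed ratio Spink8 was at -0.28 (adjusted p = 0.0755) and C1ql3 at -0.74 (adjusted p = 0.0789), which did not pass. The summed linear ratio of the list was 432 to 509 on the GFP arrays and 371 to 410 on the Nr4a1 arrays, without overlap. Tbr1, Neurod6 and Grik4 weigh most in it, at 6.84, 6.83 and 6.19 in GFP cultures, and of these only Neurod6 passed. The part of this list in the lower Npy1r was not tested.

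Npy is itself induced by neuronal activity, and of 18 tested of 20 activity-regulated genes 7 rose and 0 fell, with a median of 0.31. The transcription factors Fosl2 and Egr4 rose by 0.78 ± 0.14 (adjusted p = 0.00268) and 0.60 ± 0.12 (adjusted p = 0.00652). Arc, a synaptic immediate early gene, rose by 1.34 ± 0.31 (adjusted p = 0.0112), with pairs at 2.13, 0.14, 2.40 and 0.68, and Nptx2, a pentraxin of excitatory synapses, rose by 0.45 ± 0.11 (adjusted p = 0.0141). Without replicate 1, Arc was at 1.07 (adjusted p = 0.0704) and Nptx2 at 0.39 (adjusted p = 0.076), and Nptx2 without replicate 3 was at 0.33 (adjusted p = 0.0502). Nptx2 also did not pass in the processed ratio (0.14, adjusted p = 0.799), without background correction (0.32, adjusted p = 0.118), from Cy5 alone (0.38, adjusted p = 0.213) or with no replicate block (adjusted p = 0.0802). Arc did not pass in the processed ratio either (1.35, adjusted p = 0.0879). The list had 2 calls without replicate 1, 4 without replicate 3, 3 with no replicate block or an offset of 10, 11 with median centring and 1 in the processed ratio. Arc was highest in pairs 1 and 3, the pairs whose Nr4a1 arrays also had the highest Nr4a1 signal. In these pairs Npy2r differed by 1.13 and 0.73 and Npy6r by 1.51 and 1.18. In pairs 2 and 4 Npy2r differed by 1.19 and 0.99 and Npy6r by 1.60 and 1.44. A link of the receptor differences with Arc or with the Nr4a1 signal was not tested. The direction of Egr4 turned in the software's processed ratio, at -0.45, and with non-uniform backgrounds kept, at -0.055.

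Marker genes of the remaining cell types moved in part. Of 10 pan-neuronal genes 2 rose and 1 fell, with a median of -0.13. The fall was in Dcx, a microtubule protein of young neurons, by 1.28 (SE 0.26, adjusted p = 0.00606), with pair 3 at -2.66 against -0.78 to -0.85 in the others. Eno2, a neuronal enolase, rose by 0.29 ± 0.07 (adjusted p = 0.0096) and the neurofilament gene Nefm by 0.30 ± 0.08 (adjusted p = 0.0178), which did not pass without replicate 1 (0.30, adjusted p = 0.056) or 4 (0.21, adjusted p = 0.0649). In the software's processed ratio Nefm passed in the opposite direction, at -0.25 (adjusted p = 0.0457), and it was also negative with non-uniform backgrounds kept. Dcx (-2.41, adjusted p = 0.168) and Eno2 (0.24, adjusted p = 0.074) did not pass in the processed ratio. Tubb3, neuronal tubulin, was at -0.19 ± 0.07 (adjusted p = 0.065) and passed without replicate 1 (-0.25, adjusted p = 0.0419). The summed linear ratio was 400.2 to 439 in GFP and 366 to 418 in Nr4a1 cultures.

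Of 8 astrocyte genes 2 rose and 0 fell, with a median of 0.016. The gap junction gene Gja1 rose by 0.37 ± 0.08 (adjusted p = 0.00642) and the water channel gene Aqp4 by 0.43 ± 0.10 (adjusted p = 0.0105), while Aldh1l1 was at 0.18 ± 0.06 (adjusted p = 0.055) and Gfap at -0.16 ± 0.07 (adjusted p = 0.108). Aqp4 turned negative in the processed ratio (-0.10) and with non-uniform backgrounds kept (-0.21), and was at 0.094 (adjusted p = 0.51) in the deposited value table. Gja1 did not pass in the processed ratio (0.39, adjusted p = 0.0562). Aldh1l1 passed in the deposited table (0.18, adjusted p = 0.0294), with median centring (0.29, adjusted p = 0.0165), from Cy5 alone (0.24, adjusted p = 0.0256) and under further settings. Gfap passed in the deposited table (-0.22, adjusted p = 0.0434) and with an offset of 10 (-0.25, adjusted p = 0.042). The list had 4 calls in the deposited table and from Cy5 alone, and 0 in the processed ratio. Its summed linear ratio was 213 to 238 in GFP and 219 to 246 in Nr4a1 cultures, which overlap. Of 10 oligodendrocyte lineage genes 5 rose and 2 fell, with a median of 0.12. Pdgfra, a receptor of precursors, rose by 0.75 ± 0.06 (adjusted p = 3.22e-05) and the lineage factor Olig2 by 0.39 ± 0.06 (adjusted p = 0.00121, but -0.23 in the processed ratio), while the myelin gene Mbp fell by 0.94 (SE 0.09, adjusted p = 6.37e-05). Other myelin genes did not all follow Mbp. Chosen after their values were seen, Mag fell by 0.21 (SE 0.06, adjusted p = 0.0413), while Mog and Cnp, at -0.05 and -0.13, did not pass (adjusted p = 0.699 and 0.413). The list's sum was 91.8 to 106 in GFP and 103 to 112 in Nr4a1 cultures, which overlap.

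Of 9 microglia genes 5 were tested, 0 rose and 1 fell, with a median of -0.081. Csf1r, a growth factor receptor of microglia, fell by 0.75 (SE 0.07, adjusted p = 8.02e-05), while Tmem119 (-0.13 ± 0.06, adjusted p = 0.135), Aif1 (-0.08 ± 0.06, adjusted p = 0.346) and Itgam (-0.04 ± 0.06, adjusted p = 0.644) did not pass. The sum was 3.01 to 3.27 in GFP and 2.83 to 3.04 in Nr4a1 cultures, and Cx3cr1, P2ry12 and C1qa did not pass the filter on dim probes, while Cd68 had no probe matched to its symbol. The part of any of these cell type lists in the receptor differences was not tested.

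**Figure D4:**
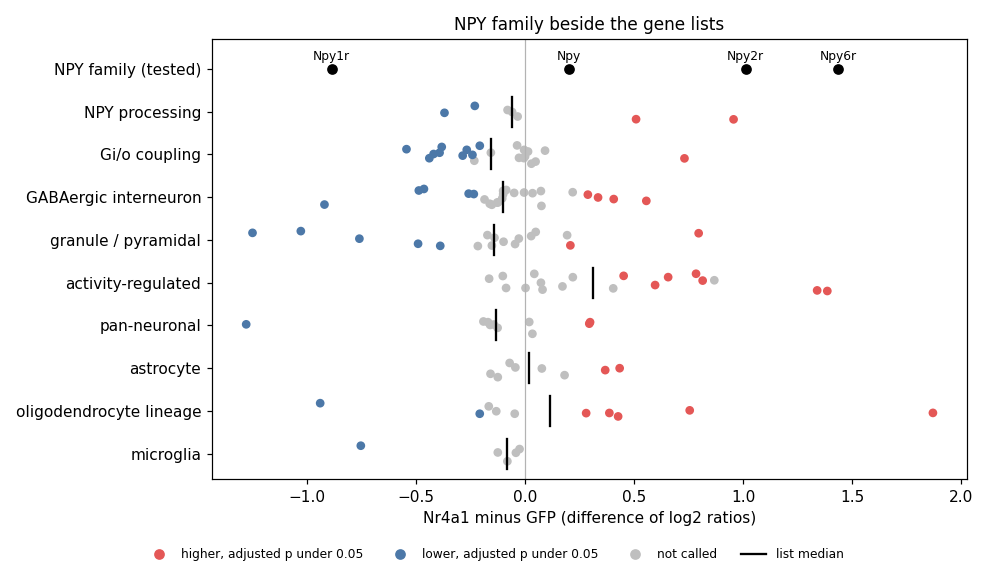
Difference in log2 ratio (Nr4a1 minus GFP, horizontal axis) of the 4 tested NPY family genes in the top row and, below, of every tested gene of the lists, red for higher and blue for lower at an adjusted p under 0.05, grey for not called, with a bar at the list's median. Npy6r at 1.43 and Npy2r at 1.01 lie to the right of most listed genes and Npy1r at -0.89 to the left, while the medians of the lists run from -0.16 to 0.31. The family was selected on this difference, so nothing is read from its place beside the lists.

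For each tested gene, the named genes of most similar profile were taken as those whose log2 ratios, centred on their mean over the 8 arrays, lay at the smallest root-mean-square distance. For Npy1r Inf2, a formin that acts on actin, was at 0.081 and P4ha2, a collagen prolyl hydroxylase subunit, at 0.081. Cyp26a1, an enzyme that degrades retinoic acid, was at 0.084. The median distance over all tested genes with a symbol and a value on every array was 0.46. The differences of Inf2, P4ha2 and Cyp26a1 were -0.86, -0.78 and -0.91. For Npy2r they were Baiap2l1, a regulator of actin at membranes, at 0.14, Kctd8, an auxiliary subunit of GABA-B receptors, at 0.143 and Rmnd5a, a ubiquitin ligase subunit, at 0.145, against a median of 0.545, with differences of 1.02, 1.02 and 0.89.

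For Npy6r the closest were Sfmbt2, a Polycomb group protein, at 0.109, Hs6st2, a heparan sulphate sulphotransferase, at 0.129 and Mbd4, a DNA glycosylase, at 0.15, against a median of 0.749, and they differed by 1.32, 1.48 and 1.44. For Npy they were Prkca, a protein kinase C, at 0.136, Pthlh, a parathyroid hormone-related peptide, at 0.138 and Pcdh10, a protocadherin, at 0.142, against a median of 0.312. These 3 differed by 0.30 ± 0.12, 0.16 ± 0.10 and 0.19 ± 0.09 (SE), and their closeness to Npy rests on 8 values of which GFP replicate 4 is the lowest for Npy. A gene close to Npy1r, Npy2r or Npy6r by this measure has mainly a like difference between the groups, which is what the measure takes in.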

How the data were processed

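RNA of 4 GFP and 4 Nr4a1 cultures was measured on 2-colour Agilent mouse arrays. Per the file headers, Agilent Feature Extraction 11.0.1.1 made the files, whose values are linear signal intensities and local background intensities for each dye and a log10 ratio of processed signals. The submitters' processing notes also name limma. The deposited value table holds log2 ratios of 24275 probes. Set against the scanner values it correlated at 0.998 to 1 in each array with slopes of 0.992 to 1.01, so its scale and direction are those used here, and its column medians were 0.024 to 0.0312. Its exact centring is unknown.

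Here median intensities were used. Spots with a non-uniform local background or an outlier flag and control spots were left out, background was corrected by normexp with an offset of 50, arrays were normalised by loess and spots of a probe were averaged (limma 3.58.1, R 4.3.3). The test took probes flagged well above background in Cy5 by 4 or more of the 8 arrays, with 3 or more values a group, and each gene was represented by its brightest tested probe. limma was fitted with the pair as a block, and p-values were adjusted by Benjamini-Hochberg over all 21113 features, of which 15019 have a symbol. Of 39429 probes, 26581 were named through RefSeq's table for GRCm38.p6, which may not be the build of the array design. The pair tag of the labels is the ground for the block, and the deviations of paired arrays from their group means correlated at -0.105, 0.276, -0.0168 and 0.425. The number of arrays limits the precision. The fitting code was tested on simulated data.

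The 5 genes and the gene lists were chosen with earlier results of these data known. Named genes are the 5 genes with every probe, Nr4a1, Pyy, Ppy and Npy4r, the up to 4 tested genes of smallest p in each other list, and the 3 named features closest to each tested gene. The result of 1 gene under this rule is not reported here. Alternatives were the processed ratio, the deposited table, spots of non-uniform background kept, no background correction, an offset of 10, median centring, Cy5 alone, the filter on dim probes, the mean of all probes, no pair block, batch or slide as a block, and each replicate left out. Probe and protein sequences were not used here.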

Additional observations from a re-analysis of the deposited data

Results flagged for a closer look

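In 4 of 42 groups of 4 arrays checked, 1 array stood apart from the other 3 by Dixon's criterion, which chance meets in about 1 of 20 groups. The Npy log2 ratio of GFP replicate 4 was 1.07, against 1.81 to 1.95 on the other GFP arrays. The Npy reference signal in Cy3 on the same array was 147, against 68 to 72 on the others. The Npy culture signal in Cy5 of Nr4a1 replicate 1 was 313.5, against 275 to 280. The culture signal of the second Npy2r probe (A_55_P1977676) on Nr4a1 replicate 2 was 179, against 125 to 133, and that array was also the highest for the brighter Npy2r probe, at 529.5.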

How the results depend on the processing

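The Npy difference, 0.20 as reported, turned negative with spots of non-uniform background kept, called all spots below (-0.15), from Cy5 alone (-0.27, past the threshold) and without GFP replicate 4, an alternative added after seeing the data (-0.072), and leaving out replicates gave -0.072 to 0.31. The cause was not tested. Spots with a non-uniform background numbered 0 to 37 of 44397 on an array, and none was at a probe of the 5 genes. Keeping them thus reached these genes only through the processing of the whole array. It ended the calls of Npy1r (-1.09), Npy2r (0.46) and Npy6r (0.99), and so did the slide as a random block (-0.82, 1.01 and 1.44). No other alternative run ended the calls, the one with no replicate block included, but Npy6r could not be tested where Cy5 had to be well above background on all 8 arrays. Since the genes were picked on this same contrast, a call that is kept or gained describes the processing and is no support for a difference. This holds too for Npy from Cy5 alone and for Npy5r without the filter on dim probes. Npy5r was at -1.73 in the processed ratio, -0.60 with an offset of 10, -0.047 with all spots and -0.32 without the filter, where it passed. Leaving out replicates gave -0.96 to -0.81 for Npy1r, 0.95 to 1.11 for Npy2r, -0.42 to -0.20 for Npy5r and 1.38 to 1.52 for Npy6r. Calls over all features, 5151 as reported, were 2862 in the processed ratio, 225 with all spots, 12 with the slide block, 4476 with no replicate block and 3418 to 4592 without 1 replicate. Calls in the lists, 50 of 121 tested, were 21, 6, 0, 43 and 37 to 50. Directions turned in the processed ratio for Pyy (-0.12), Egr4 (-0.45), Nefm (-0.25), Aqp4 (-0.10) and Olig2 (-0.23), with all spots for Egr4 (-0.055), Nefm (-0.21), Aqp4 (-0.21), Olig2 (-0.13), Aif1 (0.11), Tmem119 (0.16), Pthlh (-0.13) and Pcdh10 (-0.26), without background correction for Pyy (-0.073), from Cy5 alone for Pyy (-0.071) and Tmem119 (0.028), and with median centring for Itgam (0.067). Reference signal at background for Npy2r and Npy6r, and culture signal at background for Npy5r, limit how well their sizes are known.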
